A study of Mus musculus with 2 samples.

Results

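The genes described here are the 4 Rag GTPases of the lysosome surface (Rraga, Rragb, Rragc and Rragd), folliculin (Flcn), and the transcription factors Tfeb, Tfe3 and Mitf of the TFE family. They were chosen by symbol: every non-control probe whose gene name on the array equalled a listed symbol was taken. That rule found 6 of the 8 symbols, on 9 probes. Tfeb and Tfe3 stand on this array design under their older names Tcfeb and Tcfe3, and adding those 4 probes gave all 8 genes and 13 probes, of 27597 gene names on the array. The group was drawn up with the log2 ratios of these arrays known, Rragd's large ratio among them, so the values of the 8 genes are given as a description. Their probes were part of the fit over all probes, and where a threshold is named for them it is that fit's call, from which nothing is read.

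RNA came from G1E-ER-GATA-1 cells, a mouse erythroid line with no GATA-1 of its own. GATA-1 drives the maturation of red cells, and the line carries it as a fusion with part of an oestrogen receptor, which β-estradiol activates. All cells had the same GATA-1-null background, the same fusion protein and 24 h of β-estradiol after transfection. One group had received siRNA targeting Cbfa2t3, the gene of the corepressor ETO2, and the other control siRNA. Each of 2 arrays held both groups, with ETO2 siRNA RNA in Cy3 and control siRNA RNA in Cy5, and dyes were not swapped, so that siRNA and dye cannot be told apart at a single probe. The labels do not say whether the arrays came from separate cultures, so errors and p-values cover no more than the spread of the array pair.

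In cells with enough amino acids, Rag GTPases recruit the kinase complex mTORC1 to the lysosome. They act as pairs, RagA or RagB with RagC or RagD, held on the membrane by the Ragulator complex. Folliculin, with its FNIP partners, switches RagC and RagD to the nucleotide state in which they present TFEB and TFE3 to mTORC1, which keeps those factors in the cytoplasm. When this fails, TFEB and TFE3 enter the nucleus and activate lysosome and autophagy genes, and RRAGD and FLCN are themselves known targets of TFE factors. MITF, their relative, is best known for its role in melanocytes, mast cells and osteoclasts.

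The 60-base probe sequences of Rragd and Rragc are shown because they are what was read as these genes' levels, and because RagC and RagD are close relatives. The first sequence is the brighter Rragd probe (A_51_P457989, NM_027491), the second the other Rragd probe (A_52_P490032, NM_027491), and the last a Rragc probe (A_52_P202725, NM_017475). Capitals mark the stretch shared by the first and last when they are laid side by side without gaps, at the placement over at least 12 bases with the most matches after taking off the mismatches, where 17 of 26 bases (65.4%) are the same.
Rragd brighter probe: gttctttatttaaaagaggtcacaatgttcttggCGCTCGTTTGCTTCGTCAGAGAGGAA
Rragd other probe: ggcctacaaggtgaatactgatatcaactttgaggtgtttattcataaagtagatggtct
Rragc probe: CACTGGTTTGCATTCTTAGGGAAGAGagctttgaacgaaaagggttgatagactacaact
By the same rule, the brighter Rragd probe matched the other Rragc probe at 8 of 18 bases and the Rragb probe at 12 of 21. The position of the probes in exons was not analysed here.

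Promoter windows are shown for the same pair, the RagC and RagD genes, because Rragd had the high ratio described below and its closest relative Rragc did not. Both lie on the plus strand of chromosome 4 and come from RefSeq (GRCm38.p6): Rragd at chr4:32982748-32982997 and Rragc at chr4:123917183-123917432, each the 250 bases before the start site. Capitals mark CACGTG, the core bound by TFE factors, whose first base in Rragc lies 112 bases before the start.
Rragd promoter: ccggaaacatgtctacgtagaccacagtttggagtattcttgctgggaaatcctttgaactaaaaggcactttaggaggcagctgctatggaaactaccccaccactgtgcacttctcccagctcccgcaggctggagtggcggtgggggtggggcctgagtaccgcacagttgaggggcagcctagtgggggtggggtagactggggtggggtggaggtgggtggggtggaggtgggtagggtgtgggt
Rragc promoter: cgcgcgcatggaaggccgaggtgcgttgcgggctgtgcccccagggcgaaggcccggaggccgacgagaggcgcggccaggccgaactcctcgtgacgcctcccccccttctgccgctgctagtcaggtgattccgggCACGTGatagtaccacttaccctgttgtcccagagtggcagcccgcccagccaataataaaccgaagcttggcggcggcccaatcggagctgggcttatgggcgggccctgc
Motifs were searched on both strands in windows from 250 bases before to 50 bases after the start, of which RefSeq lists 13 for the 8 genes. AGATAA, a form of the GATA motif present in 11.2% of 32851 such windows genome-wide, was found in none of the 13. The related TGATAA (9.05% of all windows) was found in 3, which are 1 window of Tfe3 and 2 of Mitf. GATA forms ending in G were not searched, and the Rragc sequence printed above holds TGATAG, unmarked, across the end of CACGTG. The search therefore does not show which windows lack a GATA site. CACGTG (7.15% of all windows) was found in 2, those of Rragc and Rragb. None of the 3 motifs was found in the Rragd window, which says only that these letters are not in those 300 bases.

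Spot signals had a median of 82.8 and 77.5 scanner units in the ETO2 siRNA channel of arrays 1 and 2, and of 105 in the control channel of both, over local backgrounds of 44 to 47. Of 41174 probes, 24475 (59.4%) were well above background in at least 1 channel on both arrays, and 16617 genes were each represented by their brightest such probe. Levels below are log2 channel intensities after normalization, comparable between groups for 1 probe but not between probes. The targeted gene Cbfa2t3 had a log2 ratio of ETO2 siRNA over control siRNA of -0.42 ± 0.05 (SD, n = 2 arrays), which is 74.6% of control, and its second probe gave -0.23. In the fit over all kept probes with limma, 18.1% of genes were called higher and 21.9% lower at an adjusted p under 0.05 (Benjamini-Hochberg). That fit rests mainly on a variance shared across probes, because 2 arrays leave 1 residual degree of freedom, and a sign permutation of 2 arrays could not give a p below 0.5 (2-sided).

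The labels name both an erythroid tissue and embryonic stem cells. All 10 erythroid markers found on the array were well above background in both channels, as were 5 of 9 embryonic stem cell markers (Sall4, Dppa5a, Utf1, Tdgf1 and Esrrb). Nanog, Sox2 and Zfp42 were not well above background in either channel on either array, and Pou5f1 was so on 1 of 2 arrays. For each count of markers called here, the shares over all genes were 18.1% higher and 21.9% lower. Markers not well above background in at least 1 channel on both arrays were not tested and could not be called. Of the 5 embryonic stem cell markers above background, none was higher with ETO2 siRNA and 2 were lower. The summed levels of all 9 were 1740 and 1776 against 1849 and 2124. Of the 10 erythroid markers, 8 were higher with ETO2 siRNA and 1 lower, and their summed linear level was 193249 and 200959 against 131122 and 132065 in control. The lower marker was Gfi1b (-0.46), whose control spot was saturated on both arrays, which limits its ratio and the summed control level. Of 5 megakaryocyte markers, 4 were above background, 2 higher and 1 lower, with summed levels of 15410 and 18060 against 11870 and 14340. Of 8 mast cell markers, 6 were above background in control (not Ms4a2 and Tpsb2), 2 were higher and 1 lower, and the sums were 899 and 918 against 1112 and 1098. Of 7 macrophage markers, 4 were above background and none of these passed the threshold, while Adgre1, Itgam and Lyz2 were not above background. The part of these markers in the ratios below was not tested, and in bulk RNA more cells of a kind and more RNA per cell cannot be told apart.

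Among the 7 measured genes, Rragd stood far above control and the other 6 stayed close to it. Rragd RNA was 3.45 times its control level, Rraga was at 82.6% of control, and Rragc, Flcn, Tfeb, Tfe3 and Mitf lay between 0.969 and 1.08 times control on their brightest probes. Rragb was not well above background. Of the 7 measured genes, 1 was called higher (background 18.1%) and 1 lower (background 21.9%), and of their 10 kept probes 3 were called higher (background 18.7%) and 1 lower (background 20.6%). The median log2 ratio of the 7 genes was 0.11, and 0.09 without Rragd, against -0.02 over all 16617 genes.

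**Figure D1:**
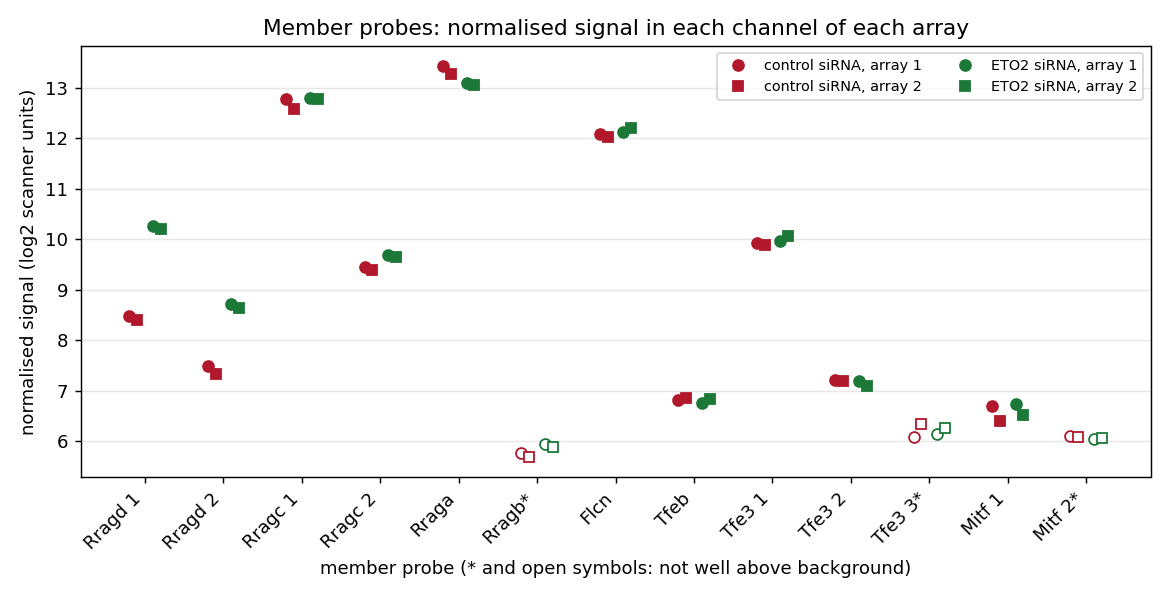
Log2 channel level (vertical axis) of each probe of the 8 genes (horizontal axis) in control siRNA and ETO2 siRNA RNA, 1 point per array and channel, after loess and scaling of average intensities. An asterisk marks a probe not well above background on both arrays. Only for the 2 Rragd probes are the groups set apart by more than 1 log2 unit, and levels of different probes cannot be compared.

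Rragd encodes RagD, the Rag GTPase that pairs with RagA or RagB and is the less widely expressed partner of the RagC type. On its brighter probe the ETO2 siRNA level was 10.26 and 10.20 on arrays 1 and 2, and the control level 8.48 and 8.41. The groups did not overlap, and both ETO2 siRNA values lay well over 1 log2 unit above both control values. The log2 ratio was 1.78 and 1.80 on the 2 arrays, 1.79 ± 0.01 (SD, n = 2), or 3.45-fold. Before normalization the spot read 964 and 873 units with ETO2 siRNA and 446 and 431 with control siRNA, so the difference was visible in the raw intensities although the ETO2 siRNA channel was the dimmer one over the whole array.

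The other Rragd probe showed the same direction with a smaller ratio. Its level was 8.71 and 8.64 with ETO2 siRNA and 7.49 and 7.34 with control siRNA, again without overlap. Its log2 ratio was 1.22 and 1.31 on the 2 arrays, 1.26 ± 0.06 (SD, n = 2), or 2.40-fold. The gap between the probes, 0.56 and 0.49 on the 2 arrays, was larger than the spread of either probe between arrays. The gap narrowed to 0.37 when no offset was added to the background-corrected signals, and to 0.29 on the scanner's processed signals. Without the offset the ratios were 1.97 on the brighter probe, or 3.91-fold, and 1.60 on the other.

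By its log2 ratio Rragd ranked 4 of 16617 genes, counted from the highest. The rank was 10 on the scanner's processed signals, 4 without the offset, and 3 with each array centred on its median in place of loess. The last setting gave Rragd a log2 ratio of 1.42, which is 1.72 above the median of all genes there, since that centring shifted the median of all genes to -0.31.

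**Figure D2:**
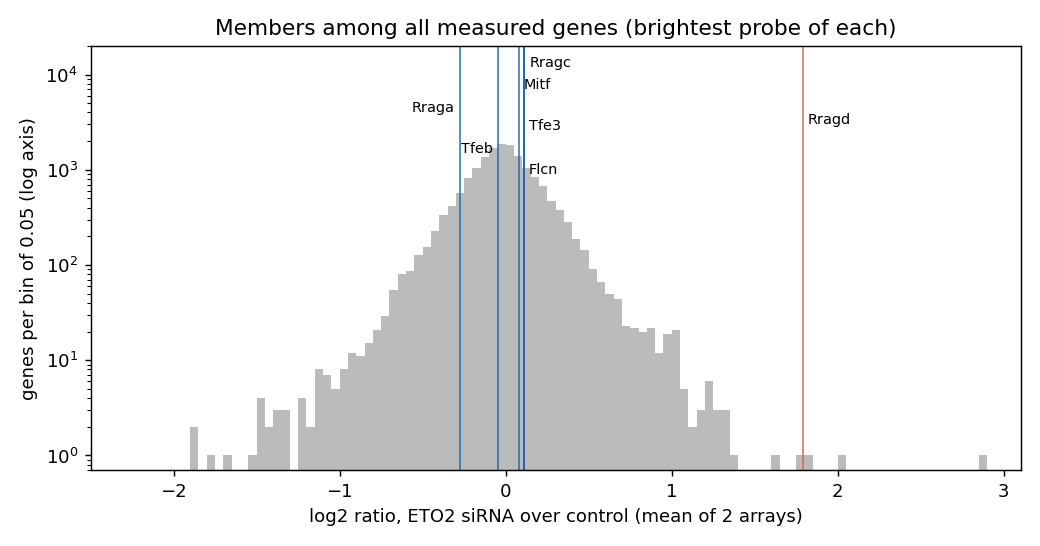
Distribution of the log2 ratio of ETO2 siRNA over control siRNA (horizontal axis, mean of 2 arrays) over 16617 genes, with the 7 measured genes of the group marked. Rragd lies at 1.79 in the far right tail, and the other 6 lie between -0.28 and 0.11.

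Rragc encodes RagC, the close relative that takes the same place as RagD in the Rag pair. Its brighter probe (A_51_P346826) had a level of 12.80 and 12.78 with ETO2 siRNA and 12.78 and 12.59 with control siRNA. The groups all but met, the lowest ETO2 siRNA value lying just above the highest control value. The log2 ratio was 0.03 and 0.20, 0.11 ± 0.12 (SD, n = 2), and did not pass the threshold. The other Rragc probe, printed above, had a level of 9.68 and 9.66 against 9.44 and 9.40, a log2 ratio of 0.25 ± 0.01 that did pass it. On the scanner's processed signals the ratios were 0.17 and 0.08, and with median centring -0.43 and -0.14. The first of the latter was 0.12 below the median of all genes there (-0.31), and the second was above that median. The sign of the ratio thus held across scalings on neither probe. Relative to all genes, the other probe stayed above the median and the brighter probe did not.

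Rraga encodes RagA, one of the alternative partners of RagC and RagD. Its level was 13.10 and 13.06 with ETO2 siRNA and 13.44 and 13.27 with control siRNA. Both ETO2 siRNA values lay under both control values. This gave a log2 ratio of -0.34 and -0.21, -0.28 ± 0.09 (SD, n = 2). It was -0.28 on the processed signals, where it did not pass the threshold, and -0.84 with median centring, which is 0.53 below the median of all genes. Ratios of this size were common on these arrays: 79.0% of genes had a smaller absolute ratio, and 11.2% had a ratio at or below that of Rraga.

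Rragb, which encodes RagB, the relative of RagA, could not be measured. Its only probe (A_52_P599549) read 55.5 and 52.1 scanner units with ETO2 siRNA and 52.8 and 49.4 with control siRNA, near the local background, and it was not well above background in either channel on either array.

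Flcn encodes folliculin, the GTPase activator that acts on RagC and RagD. Its level was 12.13 and 12.21 with ETO2 siRNA and 12.08 and 12.03 with control siRNA. The groups did not overlap, yet the gap between them was smaller than the spread within the ETO2 siRNA group. The log2 ratio of 0.04 and 0.18, 0.11 ± 0.10 (SD, n = 2), did not pass the threshold, and with median centring it was -0.40, or 0.09 below the median of all genes.

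**Figure D3:**
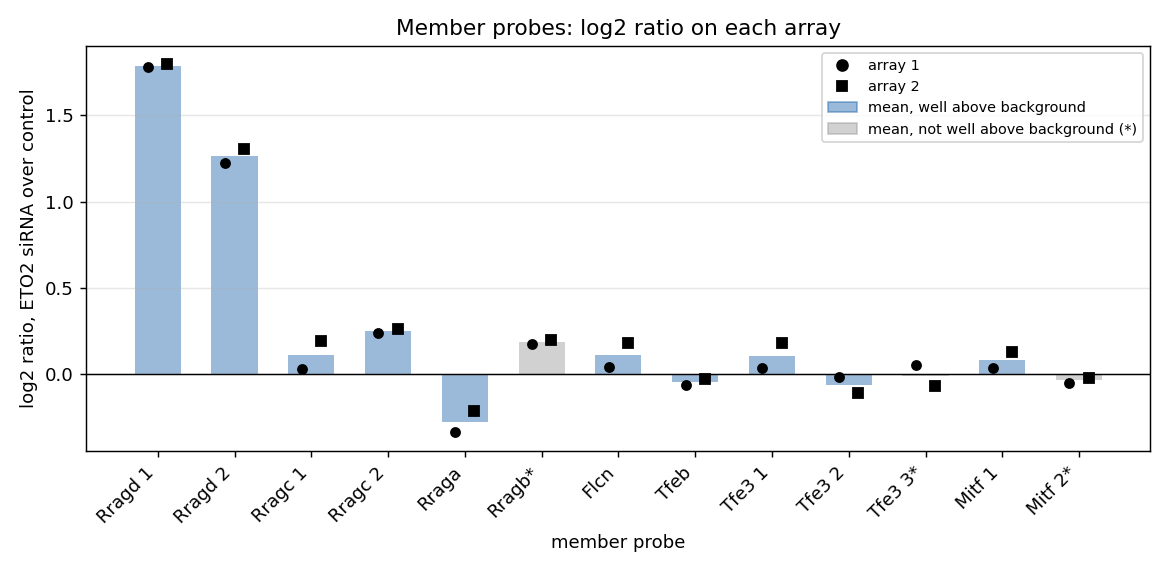
Log2 ratio of ETO2 siRNA over control siRNA (vertical axis) for the 13 probes of the 8 genes (horizontal axis), with points for arrays 1 and 2 and bars for their mean, numbered from the brightest probe of a gene. Bars reach 1.79 and 1.26 for the Rragd probes, and those of the other kept probes lie between -0.28 and 0.25.

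Tfeb encodes TFEB, the factor best known for switching on lysosome genes when mTORC1 is off. It was dim, with a level of 6.76 and 6.83 with ETO2 siRNA and 6.83 and 6.86 with control siRNA, so that the groups overlapped. The raw spots read 90.3 and 87.7 units against 122 and 127, not far from the local backgrounds, which limits what a ratio can show. The log2 ratio was -0.05 ± 0.03 (SD, n = 2) and stayed between -0.13 and -0.03 over 11 alternative settings. With median centring the ratio was -0.13, which is 0.17 above the median of all genes there, so no direction relative to all genes held.

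Tfe3 encodes TFE3, which shares its target sites and its control by Rag GTPases with TFEB. Its brightest probe (A_51_P199671) had a level of 9.96 and 10.07 with ETO2 siRNA and 9.93 and 9.89 with control siRNA, close together without overlap. The log2 ratio was 0.03 and 0.18, 0.11 ± 0.10 (SD, n = 2). A second probe (A_52_P34397) gave -0.06 ± 0.07, so the probes of Tfe3 showed no common direction, and neither passed the threshold. The remaining probe (A_52_P461313) was not well above background with ETO2 siRNA on either array and was left out.

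Mitf encodes the TFE factor of pigment and mast cells. The probe kept (A_52_P100140) had a level of 6.73 and 6.53 with ETO2 siRNA and 6.70 and 6.40 with control siRNA, with overlap between the groups. Its log2 ratio was 0.08 ± 0.07 (SD, n = 2) and did not pass the threshold. With median centring the ratio was 0.07, which is 0.37 above the median of all genes there. A Mitf probe printed at 10 spots (A_51_P364274) averaged 59.3 and 55.8 units against 64.7 and 59.5 and was not well above background in either channel. With 1 of 2 probes at background and the other dim, the arrays placed Mitf near their lower limit of detection.

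Levels on the brightest probes did not overlap, with ETO2 siRNA above control, in 4 of the 7 measured genes (Rragd, Rragc, Flcn and Tfe3; background 27.5%), and with ETO2 siRNA below in 1 (Rraga; background 34.5%).

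**Figure D4:**
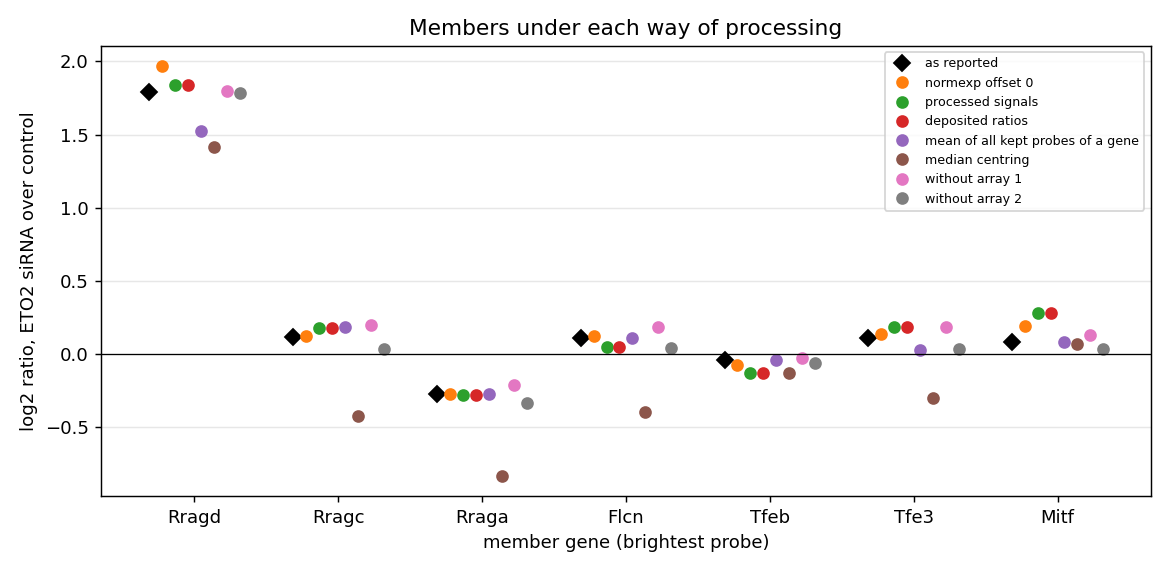
Log2 ratio of ETO2 siRNA over control siRNA (mean of 2 arrays) of the 7 measured genes under the ways of processing the spots described in the text. Rragd lies between 1.42 and 1.97 in each. Rragc, Flcn and Tfe3 lie above 0 with loess or processed signals and below 0 with median centring, where the median of all genes was -0.31.

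Among genes with an ordinary symbol, the 5 whose ratios on the 2 arrays lay nearest to those of Rragd, by Euclidean distance on their brightest probes, were Slc25a37, Tmod1, Epb42, Aqp8 and Pigq. The nearest was Slc25a37, the mitochondrial iron importer mitoferrin, with log2 ratios of 1.80 and 1.82 and a distance of 0.0308. Tmod1, which caps actin filaments, followed with 1.59 and 1.66 at a distance of 0.235. Epb42, of the red cell membrane skeleton, had 1.19 and 1.60, the water channel gene Aqp8 had 1.36 and 1.28, and the GPI anchor gene Pigq had 1.16 and 1.51, at distances of 0.625 to 0.683. With 2 arrays of 1 contrast this likeness means a ratio of similar size and no more.

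The rest of the pathway was described with 8 lists of 140 genes, of which 125 were measured. With limma, 27 of the 125 (21.6%) rose and 32 (25.6%) fell at an adjusted p under 0.05, against 18.1% and 21.9% of all genes, and none had an absolute log2 ratio of 1 or more. On the scanner's processed signals 9 rose and 3 fell (5.35% and 5.45% of all genes). The genes called in the same direction both ways were Akt1s1, Atp6v0b, Ctsb, Ctsf, Gabarap, Mcoln1 and Sgsh (higher) and Kit, Neu1 and Ywhaz (lower), so every other rise or fall named below did not pass the threshold on the processed signals. With median centring 4 rose and 100 fell (2.82% and 64.9% of all genes), and relative to the median of all genes there, 23 of the 27 stayed above and 32 of the 32 below.

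**Figure D5:**
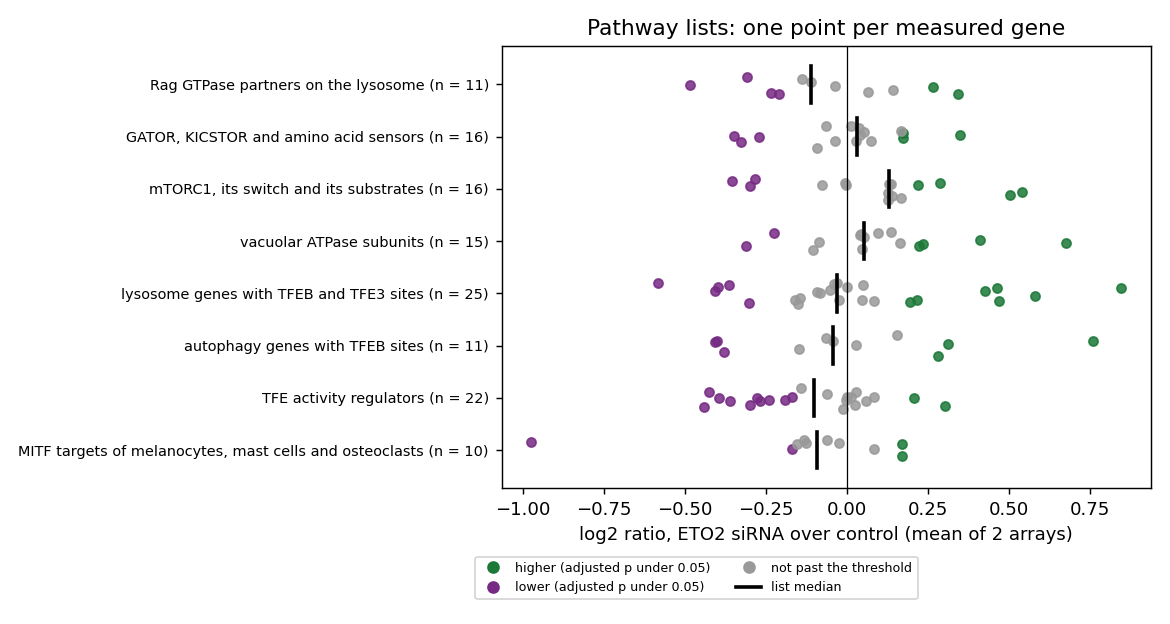
Log2 ratio of ETO2 siRNA over control siRNA (horizontal axis, mean of 2 arrays) of the measured genes of 8 pathway lists (rows), 1 point per gene, coloured by the limma call, with the list median as a bar. List medians lie between -0.11 and 0.13 and no gene reaches an absolute ratio of 1. With median centring the list medians were all below 0, as was the median of all genes (-0.31).

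Of 11 genes for proteins that act with or near the Rag GTPases on the lysosome, 2 rose and 4 fell (18.1% and 21.9% of all genes did). The median log2 ratio was -0.11. Fnip2, a partner of folliculin, fell by 0.48 ± 0.13 (SD, n = 2; limma adjusted p = 4.80e-05). Lamtor1, the Ragulator subunit that anchors the complex in the membrane, gave 0.34 ± 0.08 on its brightest probe (adjusted p = 0.000646), 0.01 on its other probe, 0.16 on the processed signals and -0.24 with median centring. Tbc1d7, a subunit of the TSC complex, gave 0.27 ± 0.02, 0.17 on the processed signals and -0.10 with median centring. Lars, the leucyl-tRNA synthetase, gave -0.23 ± 0.04 on its brightest probe (-0.07 on the processed signals) but 0.46 and 0.40 on its other probes. Lamtor3 and Lamtor5, further Ragulator subunits, fell by 0.31 and 0.21 (-0.24 and -0.11 on the processed signals), and a control spot of Lamtor3 was saturated on 1 array.

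The GATOR and KICSTOR complexes and the amino acid sensors pass nutrient signals to the Rag GTPases. Of their 16 measured genes, 3 rose and 3 fell (18.1% and 21.9% of all genes did), and the median was 0.03. Nprl3, a GATOR1 subunit whose gene lies beside the α-globin locus, gave 0.35 ± 0.02 and on its other probe 0.26 (limma adjusted p = 0.000455 on the first), and -0.11 with median centring. Depdc5, also of GATOR1, gave -0.35 ± 0.07, but -0.03 on its other probe. Wdr59 of GATOR2 gave -0.33 ± 0.04, with 0.21 and -0.18 on its other probes. Bmt2, the SAM sensor, fell by 0.27 ± 0.16.

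Of 16 measured genes of mTORC1, its activators and its substrates, 4 rose and 3 fell (18.1% and 21.9% of all genes did). The median was 0.13. Akt1s1, which encodes the mTORC1 inhibitor PRAS40, rose by 0.54 ± 0.11 (SD, n = 2; limma adjusted p = 1.35e-05). Eif4ebp1, a translation repressor that mTORC1 inactivates, gave 0.50 ± 0.05, with 0.04 on its other probe and -0.09 with median centring. Its relative Eif4ebp2 fell by 0.35 ± 0.11, and Tsc2, the inhibitor of the mTORC1 activator Rheb, fell by 0.30 ± 0.10, which was -0.04 on the processed signals. Mtor itself gave 0.29 ± 0.01, and -0.11 with median centring.

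The vacuolar ATPase is the proton pump that acidifies the lysosome and helps to pass amino acid signals to the Rag GTPases. Of its 15 subunits, 4 rose and 2 fell (18.1% and 21.9% of all genes did), with a median of 0.05. Atp6v0b rose by 0.68 ± 0.05 (SD, n = 2; limma adjusted p = 9.99e-07), and was 0.12 and not past the threshold with median centring. Atp6ap1 gave 0.41 ± 0.11, Atp6v1b2 0.23 ± 0.17 and Atp6v1h 0.22 ± 0.09, which with median centring were -0.02, -0.25 and -0.27 and on the processed signals 0.32, 0.39 and 0.02. Atp6v1h gave 0.09 and 0.08 on its other probes, which did not pass the threshold. The 2 that fell were Atp6v1f (-0.31 ± 0.06) and Atp6v1a (-0.22 ± 0.17), with -0.01 and -0.33 on the processed signals. A control spot of Atp6v1f was saturated on 1 array, and with the mean of a gene's kept probes 0 subunits were lower. The remaining 9 subunits did not pass the threshold.

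Of 25 measured lysosome genes with known TFEB or TFE3 sites, 7 rose and 5 fell (18.1% and 21.9% of all genes did), with a median of -0.03 against -0.02 over all genes. Ctsf, a cysteine protease, rose by 0.85 ± 0.05 (SD, n = 2; limma adjusted p = 8.20e-08), the largest ratio of the list. Sgsh, a heparan sulphate sulphatase, gave 0.58 on both arrays, but -0.04 on its other probe, and with median centring 0.03, which did not pass the threshold. Neu1, a sialidase, fell by 0.58 on both arrays and by 0.27 on its other probe. The protease Ctsb gave 0.47 ± 0.06 and the lysosomal calcium channel Mcoln1 0.43 ± 0.02, both -0.11 with median centring, while the membrane protein Lamp1 gave -0.41 ± 0.05 and -0.07 on the processed signals.

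Of 11 measured autophagy genes with TFEB sites, 3 rose and 3 fell (18.1% and 21.9% of all genes did), with a median of -0.04. Gabarap, which encodes an autophagosome coat protein, rose by 0.76 ± 0.25 (SD, n = 2; limma adjusted p = 2.11e-06) and by 0.92 on its other probe. Nrbf2, a subunit of the autophagy lipid kinase, fell by 0.41 ± 0.10 (-0.16 on the processed signals), and Sqstm1, the cargo receptor p62, fell by 0.38 ± 0.21. Vps18, a tethering factor, gave -0.40 ± 0.07, with -0.08 on the processed signals and -0.02 and 0.06 on its other probes.

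Of 22 regulators of TFE factor activity, 2 rose and 10 fell (18.1% and 21.9% of all genes did), with a median of -0.10. On the processed signals none rose and 1 fell (5.35% and 5.45% of all genes did). The 14-3-3 genes, whose proteins hold TFEB and TFE3 in the cytoplasm, were on both sides: Ywhae rose by 0.30 ± 0.17 and Ywhab by 0.21 ± 0.20, though with median centring these were -0.22 and -0.28 (0.28 and 0.07 on the processed signals), and Ywhag, Ywhah, Ywhaq and Ywhaz fell. Ywhaq gave -0.43 ± 0.04 on its brightest probe (-0.11 on the processed signals) and 0.33 on the other. The 3 genes of the C9orf72 complex, which acts at the lysosome, all fell on their brightest probes: C9orf72 by 0.44 ± 0.17, Wdr41 by 0.40 ± 0.12 and Smcr8 by 0.36 ± 0.01 (limma adjusted p = 0.000149, 0.000254 and 0.000356). On the processed signals these were -0.44, -0.10 and -0.16. Their other probes gave -0.17, -0.09 and -0.08.

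Of 19 MITF targets of melanocytes, mast cells and osteoclasts, 10 were measured. Of these, 2 rose and 2 fell (18.1% and 21.9% of all genes did), and 6 did not pass the threshold. Tyr, Tyrp1, Dct, Mlana, Gpnmb, Oca2, Trpm1, Tpsb2 and Ctsk were not measured. Kit, the stem cell factor receptor of early erythroid and mast cells, fell by 0.98 ± 0.10 (SD, n = 2; limma adjusted p = 2.63e-08), the largest absolute ratio of all 8 lists. Ostm1 and Acp5, both of osteoclasts, gave 0.17 each; median centring turned these to -0.37 and -0.42, and processed signals gave 0.09 and 0.27, and the melanosome gene Pmel gave -0.17. Of 5 melanocyte markers 1 was above background, and of 5 osteoclast markers 2.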

How the data were processed

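Spot brightness of 2 two-colour arrays (45018 features each) was quantified in Agilent Feature Extraction 9.1.3.1, per the file headers. The deposited intensity of spots and of their local background is linear, with no normalization. The scanner software made the deposited processed intensity by subtracting background and normalizing dyes. The deposited log10 ratio is red over green, so its sign was turned for log2 ratios of ETO2 siRNA over control siRNA. The authors' deposited table held the same log10 values rounded (largest difference 0.00412), with a median of 0 per array. Flags for saturation, background and outliers were set by that software, per the file headers. RNA input was 1.2 µg per dye, per the labels' protocols. No build for the probe design is given in the sources used here.

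Signals were corrected by normexp with an offset of 50 and loess in limma 3.58.1 (R 4.3.3), with 1639 control features at weight 0 and 10 and 4 outlier spots removed. Spots of a probe were averaged. Ratios were tested against 0 with lmFit and eBayes (prior degrees of freedom 14.6), 2-sided, with Benjamini-Hochberg adjustment over 24475 kept probes and a threshold of 0.05. Levels were taken after loess and Aquantile. Names were updated with RefSeq's GRCm38.p6 table: 24375 probes by accession, 6301 by symbol, 2426 by synonym, and 8072 kept the file's name. The steps were checked on simulated arrays.

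The 8 genes and the lists were chosen with earlier results of these data known. Named from each list were up to 4 genes with the largest absolute ratio on an unsaturated probe above background, plus any past the threshold with at least 0.5. The 5 genes most like Rragd had the smallest Euclidean distance over the 2 array ratios among genes with an ordinary symbol. Genes that kept the file's name and those with clone, locus or predicted-gene symbols were left out of that ranking. Lamtor3, Lamtor5, Mtor, Mcoln1, Lamp1, Atp6v1a, Atp6v1f, Ywhae, Ywhab, Ywhag, Ywhah and Ywhaz, and the genes beside Rragd, were named after their values were seen. Alternatives were offset 0, median centring, processed signals, deposited ratios, other filters, other probe rules and leaving out each array.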

Additional observations from a re-analysis of the deposited data

How the results depend on the processing

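Rragd kept its direction throughout: its log2 ratio was 1.97 without an offset, 1.42 with median centring, 1.84 on processed signals and on deposited ratios, 1.53 as the mean of its probes, and 1.78 to 1.80 with either array left out, a value with no test. Over all kept probes, 740 were higher and 15448 lower with median centring, 1303 and 1227 on processed signals, and 1234 and 1169 on deposited ratios, against 4573 and 5046. One fit over genes gave 3046 higher, as it tests fewer features. Of the 8 genes, 2 were higher without the filter on dim probes (Rragd and Rragb, whose probe is at background) and with the mean of probes (Rragd and Rragc). With median centring 4 were lower (Rragc, Rraga, Flcn and Tfe3), as were 64.9% of all genes. Relative to the median of all genes there, Rragc was at -0.12, Rraga at -0.53, Flcn at -0.09 and Tfe3 at 0.006. On processed signals and deposited ratios 0 were lower, Rraga's ratio being -0.28 there. Of the pathway genes, 4 were higher and 100 lower with median centring (2.82% and 64.9% of all genes were). On both processed signals and deposited ratios 9 were higher and 3 lower. Among the list genes named by the rule above, median centring reversed the sign of Acp5 (-0.42), Ostm1 (-0.37), Atp6v1h (-0.27), Atp6v1b2 (-0.25), Lamtor1 (-0.24), Nprl3 (-0.11), Ctsb (-0.11), Tbc1d7 (-0.10), Eif4ebp1 (-0.095) and Atp6ap1 (-0.022). The median of all genes was -0.31 there, and of these genes only Acp5 and Ostm1 lay below it. Further list genes called higher also turned below 0, among them Mtor, Mcoln1, Ywhae and Ywhab, and Rheb (-0.36) and Seh1l (-0.35), which lay below that median too. Among the genes named by the rule, the mean of probes reversed Lars (0.21). The causes were not tested. Each array pairs both groups, so the test of its ratios against 0 is already paired. Rragb, Tfeb and Mitf are limited by their signal over background.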

Other observations

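The genes beside Rragd on chromosome 4 were looked at after the ratio of Rragd was known, in the gene order of RefSeq's GRCm38.p6 table. Of the 5 protein-coding genes on each side, 7 were measured, of which 2 were higher and 2 lower (18.1% and 21.9% of all genes were). Their log2 ratios ran from -0.38 to 0.66, against 1.79 for Rragd. Ankrd6, the neighbour on one side, had a log2 ratio of 0.66 ± 0.10 (SD, n = 2) and Ube2j1, the neighbour on the other, -0.25 ± 0.02. Farther out, Mdn1 had 0.34 ± 0.17, or -0.11 with median centring, and Lyrm2 -0.38 ± 0.03. Gja10, Casp8ap2 and Gabrr1 did not pass the threshold, with -0.05, -0.05 and 0.10. Gabrr2 and Srsf12 were not well above background, and Pm20d2 was not matched to a probe.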
